A study of Saccharomyces cerevisiae with 12 samples.

Results

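The genes described here are 33 Saccharomyces cerevisiae genes for heat shock chaperones and cochaperones. They encode the Hsp70, Hsp90, Hsp104 and Hsp60 proteins of the cytosol, mitochondria and endoplasmic reticulum, their partner proteins, and the transcription factor Hsf1. They were chosen by name, as a functional list, from the 7127 features of the deposited count table, with earlier results of these data known. All 33 passed the filter on low counts, with 5990 features tested in all. RNA-seq libraries of polyadenylated RNA were made from 2 MATa strains, each given estradiol (E2) or ethanol (EtOH), the solvent, for 3 hours, with 3 libraries in each of the 4 groups. The S10D-labelled strain, in E2 or in EtOH, carries by its label hht2-hhf2::[HHT-S10D-HHFS]-URA3, a histone H3 construct in which serine is changed to aspartate, together with loxCEN4lox:KanMX, the Cre construct GDP-creEDB78:LEU2, the arrays trp1::TetO:TRP1 and lys4::LacO:hphNT1, the reporters his3::LacR-GFP:HIS3 and TetR-mRFP, and bar1-delta-, Ade1 and leu2-x. The reference strain, in E2 or in EtOH, carries lox-CEN4-lox:KanMX and GDP-creEBD78:LEU2 with the marker alleles met15-delta-0, ura3-delta-0, leu2-delta-0 and his3-delta-1. Both strains thus hold lox sites around the centromere of chromosome IV and a Cre recombinase, expressed from the constitutive GDP promoter, of a kind known to be activated by estradiol, and no library of a strain without lox sites was analysed here. The strains differ in many alleles besides the H3 construct, so what belongs to that construct and what belongs to the others cannot be told apart. Nothing in the labels ties replicates to independent cultures, and p-values therefore measure only the spread between these libraries.

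Chaperones bind unfolded or partly folded proteins and release them in cycles driven by ATP. In yeast the cytosolic Hsp70 proteins Ssa1, Ssa2, Ssa3 and Ssa4 work with J proteins such as Ydj1 and Sis1, which bring substrates and start ATP hydrolysis, and with nucleotide exchange factors such as Sse1, Sse2 and Fes1. Hsp90, encoded by the constitutive HSC82 and the more strongly heat-induced HSP82, receives clients from Hsp70 through Sti1 and is paced by cochaperones such as Aha1, Sba1 and Cdc37, while Hsp104 pulls single chains out of aggregates. Hsf1 drives most of these genes by binding heat shock elements, which are alternating inverted repeats of nGAAn. Genes of chaperones in the endoplasmic reticulum also answer to Hac1 through the unfolded protein response element, and many stress genes answer to Msn2 and Msn4 through the stress response element.

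The upstream regions are shown first because they hold the elements through which these genes are known to be controlled. Windows of 300 bases in the coding direction, the first base of each lying 400 bases before the start codon, are printed for the 3 genes with the largest E2 response in the reference strain (HSP82, SSA4, HSP104) and the 2 with the smallest (KAR2, ECM10), from RefSeq's R64 genome, the build named in the submitters' processing notes. Capitals mark matches on either strand to the 2-unit heat shock element (GAA and TTC, in either order, with any 2 bases between them), its 3-unit form (GAA, TTC, GAA or TTC, GAA, TTC, again with any 2 bases between units), the stress response element (AGGGG or CCCCT) and the unfolded protein response element (CAGCGTG or CACGCTG). The KAR2 window overlaps the neighbouring gene TAD2.
HSP82, chrXVI:98726-99025 (minus strand): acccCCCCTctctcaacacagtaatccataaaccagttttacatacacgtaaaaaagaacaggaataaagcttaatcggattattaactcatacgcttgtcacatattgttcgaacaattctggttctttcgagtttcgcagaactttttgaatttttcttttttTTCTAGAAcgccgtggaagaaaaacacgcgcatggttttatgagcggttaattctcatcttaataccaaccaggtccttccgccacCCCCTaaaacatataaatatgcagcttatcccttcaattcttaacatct
SSA4, chrV:364189-364488 (plus strand): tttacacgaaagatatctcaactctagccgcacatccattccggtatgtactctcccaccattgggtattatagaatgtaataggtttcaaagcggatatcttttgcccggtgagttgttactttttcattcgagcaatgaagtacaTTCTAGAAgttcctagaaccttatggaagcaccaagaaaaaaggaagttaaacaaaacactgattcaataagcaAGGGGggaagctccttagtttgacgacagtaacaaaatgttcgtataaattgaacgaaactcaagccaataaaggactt
HSP104, chrXII:88223-88522 (plus strand): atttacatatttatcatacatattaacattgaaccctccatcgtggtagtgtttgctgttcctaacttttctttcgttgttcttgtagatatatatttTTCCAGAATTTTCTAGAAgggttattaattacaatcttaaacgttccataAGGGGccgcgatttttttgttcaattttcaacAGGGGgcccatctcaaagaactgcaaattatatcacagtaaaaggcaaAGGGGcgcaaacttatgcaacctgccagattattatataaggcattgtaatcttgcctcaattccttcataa
KAR2, chrX:380927-381226 (plus strand): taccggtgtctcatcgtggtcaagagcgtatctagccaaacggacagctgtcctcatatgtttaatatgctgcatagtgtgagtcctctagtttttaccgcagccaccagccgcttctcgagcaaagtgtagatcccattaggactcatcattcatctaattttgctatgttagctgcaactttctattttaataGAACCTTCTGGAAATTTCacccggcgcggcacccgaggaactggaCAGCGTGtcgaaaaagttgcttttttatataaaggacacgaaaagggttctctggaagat
ECM10, chrV:94244-94543 (plus strand): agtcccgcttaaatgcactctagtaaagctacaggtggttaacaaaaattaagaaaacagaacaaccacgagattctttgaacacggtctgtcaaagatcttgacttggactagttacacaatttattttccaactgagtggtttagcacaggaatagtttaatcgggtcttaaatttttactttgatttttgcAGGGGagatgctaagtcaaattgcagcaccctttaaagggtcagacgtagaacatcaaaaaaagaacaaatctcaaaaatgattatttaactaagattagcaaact

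Over 500 bases before the start codon, 14 of the 33 genes (42.4%) held a perfect 3-unit heat shock element, against 89 of the 6000 genes searched (1.48%). The shorter 2-unit form, which every 3-unit match contains, was in 26 of the 33 (78.8%) and in 35.2% of all genes. The stress response element stood in 13 (39.4%) of the 33 and in 34.1% of all genes, and the unfolded protein response element in 3 (KAR2, LHS1 and STI1; 9.09%) against 2.32%. Many of these genes are textbook targets of Hsf1, so the share with an element describes the list. The perfect 3-unit matches shown next, in capitals with 10 bases on each side, come from genes whose E2 response in the reference strain ran between a log2 fold change of 1.05 and -0.04, to set like elements beside unlike responses.
HSP104, chrXII:88311-88348 (plus strand): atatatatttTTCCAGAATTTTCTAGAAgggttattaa
SSA1, chrI:141768-141805 (minus strand): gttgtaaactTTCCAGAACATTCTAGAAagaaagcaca
SIS1, chrXIV:619877-619919 (minus strand): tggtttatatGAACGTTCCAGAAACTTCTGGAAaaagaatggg
HSP78, chrIV:974463-974500 (minus strand): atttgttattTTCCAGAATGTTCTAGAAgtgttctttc
KAR2, chrX:381112-381149 (plus strand): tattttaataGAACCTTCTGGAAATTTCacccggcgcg
HSP10, chrXV:370982-371014 (minus strand): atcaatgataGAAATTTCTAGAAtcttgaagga

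HSP82 and SSA4, with the largest responses, held only the 2-unit form in these letters, at TTCTAGAA in both windows, while KAR2 and HSP10 held a 3-unit form and were not called. Of the 14 genes with a 3-unit element 9 were called higher in E2 in the reference strain, and of the 19 without one 10 were called higher. Their median log2 fold changes were 0.34 and 0.26. Of all genes tested, 22.4% were called higher in this comparison. Without reference EtOH replicate 3, a library that stood apart from its group, the counts were 12 of 14 and 12 of 19, and the medians 0.55 and 0.40. In that fit 26.0% of all genes were called higher. For the 2-unit form the counts were 17 of 26 genes with it and 2 of 7 without it, with medians of 0.42 and -0.03; without that library they were 22 of 26 and 2 of 7, with medians of 0.55 and -0.03. The 7 genes without the 2-unit form were CNS1, HSF1, the mitochondrial ECM10, MDJ1 and SSC1, and LHS1 and PDI1 of the endoplasmic reticulum. The contrast thus overlaps with compartment, and what the element itself contributes was not tested. A match here is a string of letters and not a measured binding site.

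Depth was even, at 9362173 to 11806239 counts per library, and the common biological coefficient of variation was 6.31%. The 33 genes took 1.92% to 1.95% of all counts in S10D-labelled E2 libraries, 1.84% to 1.88% in S10D-labelled EtOH, 1.77% to 1.89% in reference E2 and 1.28% to 1.39% in reference EtOH. Ribosomal protein genes, whose transcripts are a large share of the total, took 9.15% to 9.50% in S10D-labelled E2, 9.43% to 9.58% in S10D-labelled EtOH, 8.72% to 9.49% in reference E2 and 11.9% to 13.4% in reference EtOH, so their share moved with the same group. Genes of mating type a were expressed in all 12 libraries, with STE2 at 7380 to 17257 counts. MFA1, also of mating type a, had 715 to 851 counts in the S10D-labelled strain and 1962 to 3688 in the reference strain. Of the genes of mating type alpha, MF(ALPHA)2 had 0 to 6 counts, MF(ALPHA)1 6 to 30 and STE3 44 to 114. BAR1, labelled deleted in the S10D-labelled strain, had 3162 to 3787 counts there and 6829 to 9265 counts in the reference strain. Reads were thus counted for BAR1 despite that label, and which part of the gene they cover was not examined. In these bulk libraries a change in every cell and a change in a fraction of the cells cannot be told apart.

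One library stood apart from its group. Reference EtOH replicate 3 differed from replicates 1 and 2 with a chi-square of 31.5 and 32.5 per degree of freedom over genes, and the other 10 replicate pairs lay between 1.4 and 5. Of the 33 genes, 7 were at least 1.4-fold higher in this library than in the mean of the other 2 libraries of the group. HCH1 was 2.03-fold higher, BTN2 1.74-fold, FES1 1.72-fold, SIS1 1.6-fold, MBF1 1.55-fold, CUR1 1.53-fold and APJ1 1.47-fold, while SSA4 stood at 0.882, LHS1 at 0.858 and HSF1 at 0.847 of the mean of the other two. All 7 are 1587 bases long or shorter. Other short genes were not raised as much, such as AHA1 (1053 bases, 1.08-fold) and CNS1 (1158 bases, 0.9-fold). Across the 33 genes the log2 ratio of replicate 3 ran against gene length (Spearman's rho -0.649, n = 33 genes, all measured in the same libraries), and across the 5238 genes at 10 CPM or more rho was -0.364. Over these 5238 genes the median log2 ratio was only 0.13 up to 500 bases and -0.11 over 2000 bases. Why this library differed was not tested. The SD was at a median of 7.29% of the mean in reference EtOH and largest for HCH1 (44.4%), while the median was 2.31% in S10D-labelled E2, 2.3% in S10D-labelled EtOH and 3.42% in reference E2. Results that rest on this library are given with and without it.

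**Figure D1:**
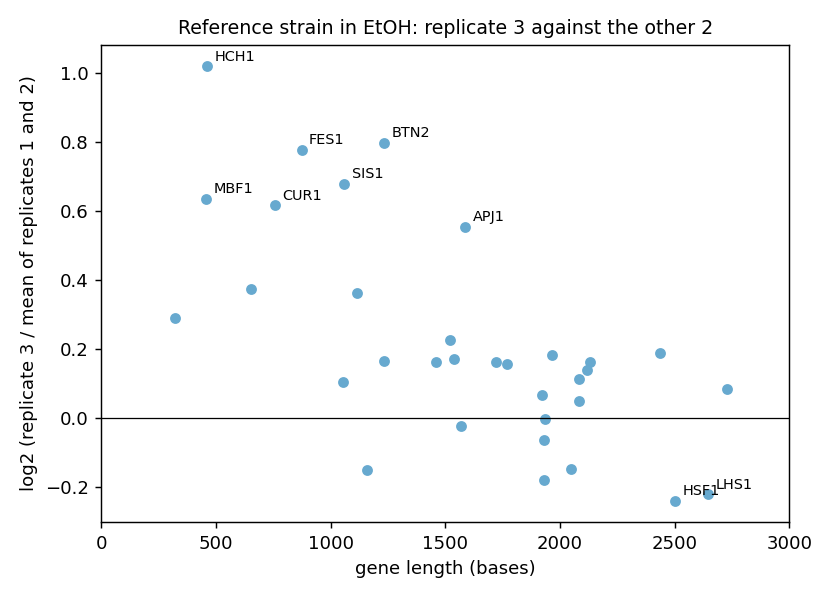
Each point is 1 of the 33 genes, with gene length in bases on the x axis and, on the y axis, the log2 ratio of its TMM-scaled CPM in reference EtOH replicate 3 to the mean of replicates 1 and 2. The 7 genes named above the line, between APJ1 at 1.47-fold and HCH1 at 2.03-fold, are all 1587 bases or shorter, while HSF1 and LHS1, both over 2000 bases, lie below 0. Short genes also lie lower, such as AHA1 (1053 bases, 1.08-fold) and CNS1 (1158 bases, 0.9-fold).

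Levels per length are given as CPM per kilobase, that is CPM scaled with TMM factors and divided by gene length, and averaged over 3 libraries with SD. In reference EtOH the highest was PDI1, the disulfide isomerase of the endoplasmic reticulum, at 1186 ± 29.4 CPM per kilobase, followed by HSP10, the mitochondrial cochaperonin, at 920.2 ± 114, MBF1, a transcriptional coactivator, at 836 ± 228, and KAR2, the Hsp70 of the endoplasmic reticulum, at 763 ± 55.1. The HSP10 and KAR2 levels both lay within 1 SD of that of MBF1. The lowest were BTN2, CUR1 and ECM10, at 26.3, 25.2 and 17.7 CPM per kilobase. The 2 Hsp90 genes were unequal. In S10D-labelled E2 HSC82 stood at 948 and HSP82 at 309.8 CPM per kilobase, and in S10D-labelled EtOH at 931 and 287, whereas in reference E2 they were at 683 and 380.4 and in reference EtOH at 471 and 158. Of SSA1, SSA2 and SSA4, SSA1 was the highest in each of the 4 groups, at 641 CPM per kilobase in S10D-labelled E2, 635 in S10D-labelled EtOH, 791 in reference E2 and 413 in reference EtOH. SSA4 was above SSA2 only in reference E2, with 431 CPM per kilobase for SSA4 and 389 for SSA2. SSA1 and SSA2 share much of their coding sequence, and SSA4 shares no 50-base window with them. The SSA1 and SSA2 levels thus depend on how shared reads were counted.

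**Figure D2:**
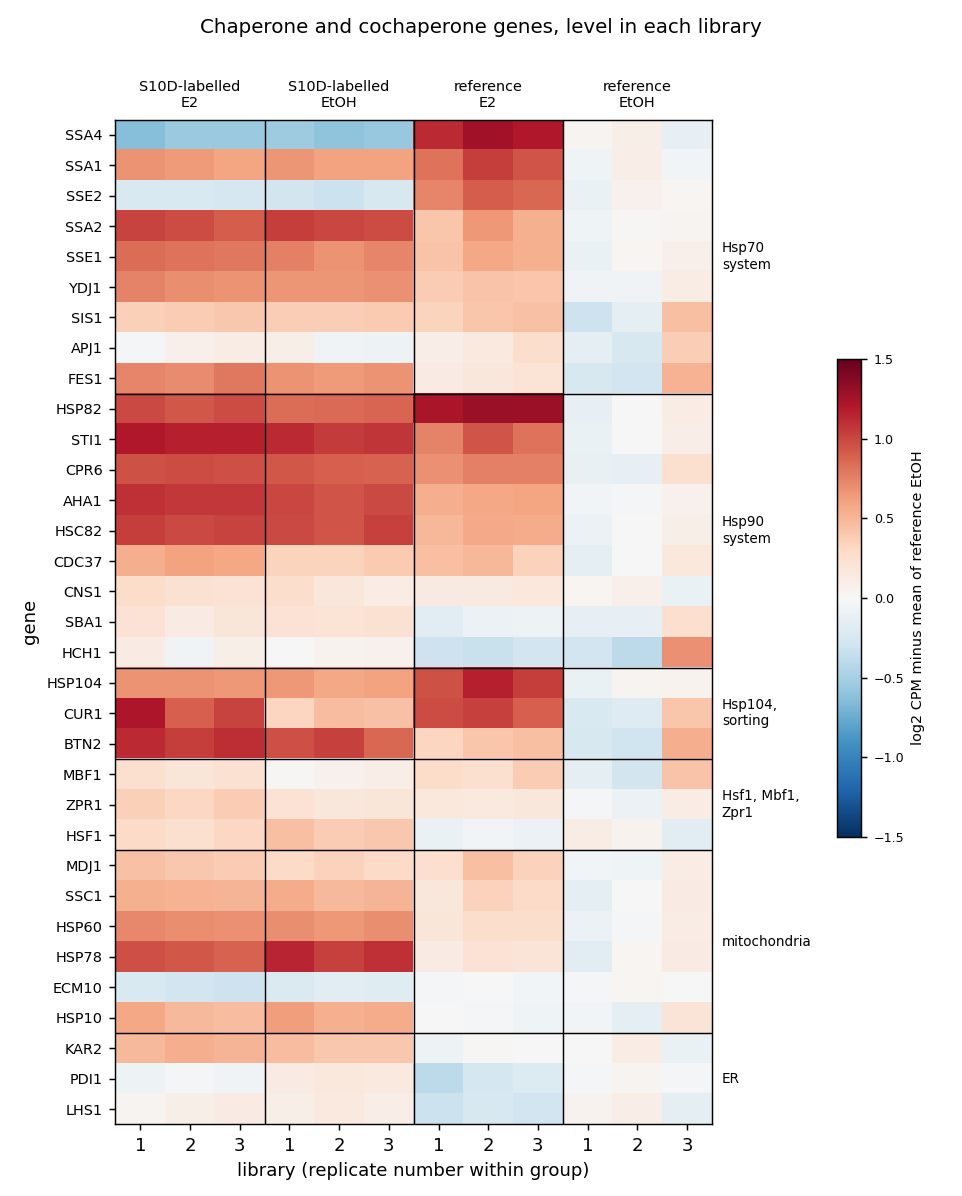
Level of each of the 33 genes (rows, grouped by system) in each of the 12 libraries (columns, 3 per group), as log2 TMM-scaled CPM minus the mean of the gene over reference EtOH. Red is higher and blue lower. Most Hsp90 and Hsp70 rows are red in both S10D-labelled groups and in reference E2, SSA4 and SSE2 are blue in the S10D-labelled groups, and reference EtOH replicate 3 is red for HCH1, FES1, SIS1, BTN2 and CUR1.

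E2 against EtOH in the reference strain shows what the chaperone genes did over 3 hours in E2 in cells with the excisable centromere. Of the 33 genes 19 rose, 2 fell and 12 did not pass the test, where 22.4% of all genes tested were called higher and 22.2% lower. The median log2 fold change of the 33 was 0.33, and that of all genes -0.0035. The median of the 33 was 0.20 without reference EtOH replicate 1 and 0.46 without reference EtOH replicate 3. The E2 libraries lay entirely above the EtOH libraries for 19 genes and entirely below for 2, where 24.8% and 23.8% of all genes did so. Without reference EtOH replicate 3 the count was 24 higher and 3 lower, where 26.0% of all genes were higher and 26.0% lower. All 21 calls were kept, and SIS1, FES1, APJ1, BTN2 and MBF1 joined the genes higher in E2 and HSF1 those lower.

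Among the 9 genes of the Hsp90 system, 6 rose and 3 were not called, with a median log2 fold change of 0.54. HSP82 (YPL240C), the inducible Hsp90, had 787, 826 and 817 CPM in E2, against 310.2, 339 and 364 CPM in EtOH (log2 fold change 1.26 ± 0.05, SE, adjusted p = 7.45e-10). Every E2 library was above all EtOH libraries, and this response was the largest among the 33. HSC82 (YMR186W), the constitutive Hsp90, had 1405, 1471 and 1461 CPM in E2, against 934, 994 and 1062 CPM in EtOH (0.54 ± 0.05, adjusted p = 7.90e-07). Its groups did not overlap, and its change on the log2 scale was under the change of HSP82. STI1 (YOR027W), which hands clients over to Hsp90, had 421, 481 and 441 CPM in E2, against 235, 249 and 269 CPM in EtOH (0.83 ± 0.06, adjusted p = 9.06e-08). CPR6 (YLR216C), a peptidyl-prolyl isomerase that binds Hsp90, had 386, 406 and 405 CPM in E2, against 222, 220.01 and 284 CPM in EtOH (0.72 ± 0.08, adjusted p = 4.92e-06). AHA1 (YDR214W), which speeds up Hsp90's ATPase, had 336, 346 and 349 CPM in E2, against 223, 227 and 242 CPM in EtOH (0.57 ± 0.04, adjusted p = 1.68e-07). All of these groups stood clear of each other. CDC37 (YDR168W), which brings protein kinases to Hsp90, was at 0.43 ± 0.07 (adjusted p = 0.000130). The cochaperone genes CNS1 (YBR155W), SBA1 (YKL117W) and HCH1 (YNL281W), at 0.14, -0.12 and -0.40, did not pass. HCH1, which encodes a relative of Aha1, had 127, 124 and 128 CPM in E2, against 129, 119 and 251 CPM in EtOH, so that its value rests on replicate 3; without that library it was 0.03.

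In the cytosolic Hsp70 system 6 of 9 genes rose and 3 were not called, with a median of 0.51. SSA4 (YER103W), the Hsp70 known as stress-induced, had 792, 869 and 833 CPM in E2, against 374, 385 and 335 CPM in EtOH (1.19 ± 0.06, adjusted p = 2.04e-09). SSA1 (YAL005C) had 1405, 1639.6 and 1534 CPM in E2, against 764, 853 and 774 CPM in EtOH (0.94 ± 0.06, adjusted p = 3.37e-08), and SSA2 (YLL024C) had 689.6, 807 and 745 CPM in E2, against 493, 523 and 531 CPM in EtOH (0.53 ± 0.05, adjusted p = 3.47e-06). The E2 libraries of all 3 genes were above every EtOH library. SSA1 and SSA2 are near-identical, sharing 57.9% and 58.2% of their 50-base windows, so how counting divided their reads is uncertain, while SSA4 shares none with either. SSE2 (YBR169C), an exchange factor of the Hsp110 type, had 319, 362 and 349 CPM in E2, against 180.1, 201 and 197 CPM in EtOH (0.83 ± 0.05, adjusted p = 5.46e-08). Its more abundant paralog SSE1 (YPL106C) had 876, 975 and 947 CPM in E2, against 609.8, 665 and 689.7 CPM in EtOH (0.51 ± 0.05, adjusted p = 3.30e-06). YDJ1 (YNL064C), the main cytosolic J protein, was at 0.41 ± 0.05 (adjusted p = 1.16e-05). SIS1 (YNL007C), the essential J protein, had 354, 372 and 378 CPM in E2, against 226, 253 and 383 CPM in EtOH, and was not called (log2 fold change 0.36, adjusted p = 0.0690). Only replicate 3 of EtOH reached the E2 level; without it SIS1 was at 0.62 and called. The J protein gene APJ1 (YNL077W) and the exchange factor gene FES1 (YBR101C) were at 0.14 and 0.11, not called, and without that library at 0.36 and 0.42, both called.

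HSP104 (YLL026W), the disaggregase, had 1221, 1406 and 1285 CPM in E2, against 586, 648 and 653 CPM in EtOH (1.05 ± 0.06, adjusted p = 7.54e-09), and its groups lay far apart. CUR1 (YPR158W) and BTN2 (YGR142W) encode related factors that sort misfolded proteins to deposits. CUR1 had 36.8, 37.9 and 34.8 CPM in E2, against 15.9, 16.4 and 25.0 CPM in EtOH (0.93 ± 0.14, adjusted p = 0.000151). It was among the least abundant of the 33, and without replicate 3 it stood at 1.18. BTN2, at 39.0, 41.7 and 42.7 CPM in E2, against 26.5, 25.5 and 45.5 CPM in EtOH, was not called (log2 fold change 0.33, adjusted p = 0.138) and stood at 0.66, called, without replicate 3.

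The organelle chaperones moved less or the other way. In mitochondria 4 of 6 genes rose, with a median of 0.20. The J protein gene MDJ1 (YFL016C) was at 0.35 ± 0.06, the matrix Hsp70 gene SSC1 (YJR045C) at 0.26 ± 0.06, the chaperonin gene HSP60 (YLR259C) at 0.23 ± 0.05 and the disaggregase gene HSP78 (YDR258C) at 0.17 ± 0.06. The HSP78 call lay near the threshold (adjusted p = 0.0416), and its E2 libraries, at 140.2 to 149.5 CPM, overlapped its EtOH libraries, at 116 to 141 CPM. It was lost when any 1 library other than reference EtOH replicate 3 or reference E2 replicate 1 was left out, with an adjusted p of up to 0.175. HSP10 (YOR020C) and ECM10 (YEL030W), a paralog of SSC1, were at -0.04 and -0.03 and not called. In the endoplasmic reticulum 2 of 3 genes fell. PDI1 (YCL043C) had 1421 to 1619.8 CPM in E2, against 1827 to 1913 CPM in EtOH (-0.28 ± 0.05, adjusted p = 0.000210), and LHS1 (YKL073W), a partner of Kar2, was at -0.29 ± 0.06 (adjusted p = 0.00103). KAR2 (YJL034W), at 1478 to 1574 CPM in E2 against 1457 to 1682 CPM in EtOH, was not called (-0.02).

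HSF1 (YGL073W), the regulator's own gene, had 163, 169.8 and 165 CPM in E2, against 189, 182 and 157 CPM in EtOH, and was not called (log2 fold change -0.08, adjusted p = 0.280). Without replicate 3 it was at -0.16 and called lower. MBF1 (YOR298C-A), at 452, 438 and 484 CPM in E2 and 336, 307 and 500.1 CPM in EtOH, was at 0.26 ± 0.14 and not called, and at 0.51 and called without replicate 3. ZPR1 (YGR211W), which encodes a zinc finger protein, was at 0.16 ± 0.05 (adjusted p = 0.0206), a call lost without reference EtOH replicate 1 or 2 or reference E2 replicate 3 (adjusted p up to 0.0849). AHA1, CDC37 and HSP78 lie on chromosome IV, whose genes had a median log2 fold change of 0.12 in this comparison. Of 737 genes tested on that chromosome 308 were called higher, where 22.4% of all genes were. In the S10D-labelled strain the median of the chromosome IV genes was 0.07. With scaling factors computed without ribosomal protein genes, 18 of the 33 were called higher, and with factors computed without chromosome IV 20.

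**Figure D3:**
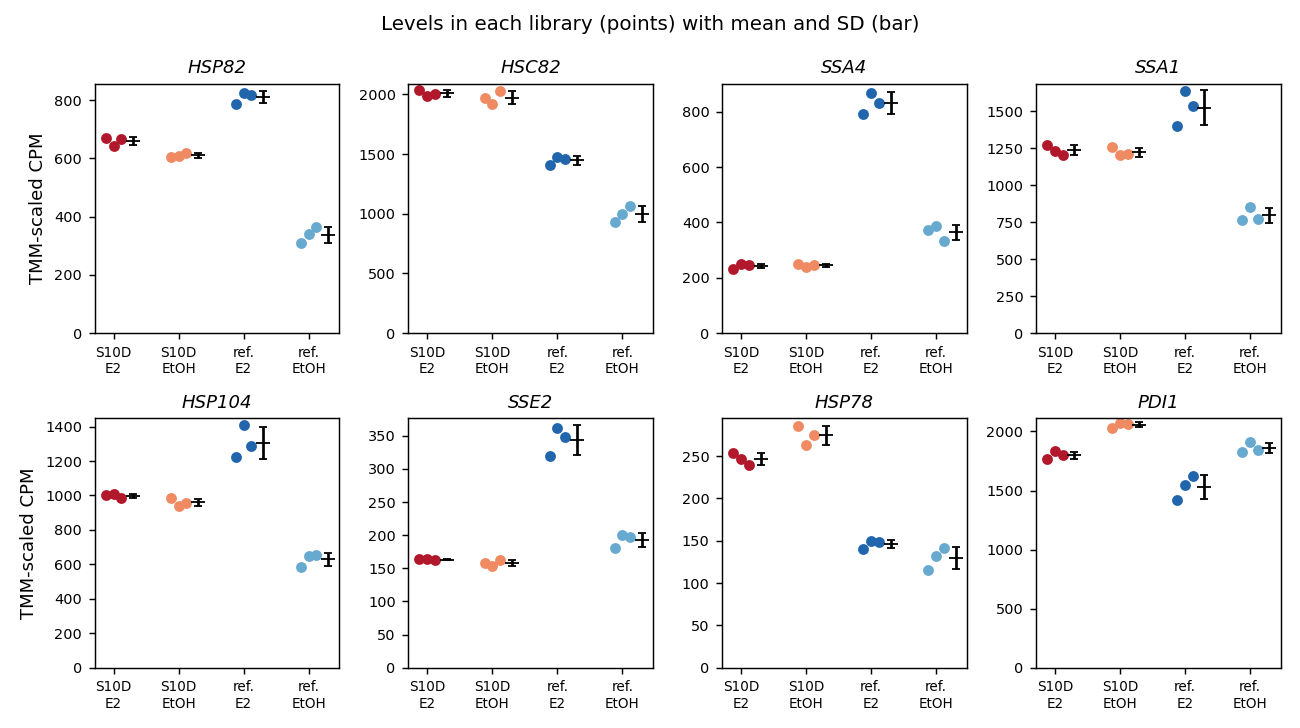
TMM-scaled CPM of 8 of the genes in each library (points, 3 per group) with the group mean and SD (bar), both strains in E2 and in EtOH, each axis starting at 0. HSP82, SSA4, SSA1, HSP104 and SSE2 are highest in reference E2, with SSA4 at 792 to 869 CPM there, HSC82 and HSP78 are highest in the S10D-labelled groups, and PDI1 is lower in E2 than in EtOH in both strains.

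In the S10D-labelled strain E2 was compared with EtOH in the same way. CUR1 rose, PDI1 fell and the other 31 genes did not pass the test, where 2.42% of all genes were called higher and 2.14% lower. The median log2 fold change of the 33 was 0.04, and that of all genes 0.0012. CUR1 had 43.4, 34.7 and 37.8 CPM in E2, against 23.4, 25.7 and 25.4 CPM in EtOH (0.63 ± 0.14, adjusted p = 0.0221), so its E2 libraries were all above its EtOH libraries. PDI1 had 1769.9, 1832 and 1797 CPM in E2, against 2033, 2073 and 2064 CPM in EtOH (-0.19 ± 0.05, adjusted p = 0.0309), also without overlap. Leaving out any 1 of the 6 libraries of this strain cost PDI1 its call (adjusted p up to 0.124), and any but E2 replicate 2 cost CUR1 its call (adjusted p up to 0.113).

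The genes with the largest responses in the reference strain were close to level here. SSA4 had 233, 248 and 247 CPM in E2, against 251, 240.2 and 246 CPM in EtOH, a log2 fold change of -0.02 with a 95% interval of -0.14 to 0.10. HSP82 had 671, 643 and 665 CPM in E2, against 604, 609 and 619 CPM in EtOH, and its interval was 0.0022 to 0.22. HSP104 had 1004, 1006 and 986 CPM in E2, against 983, 939.6 and 956 CPM in EtOH, with an interval of -0.06 to 0.17. The libraries of SSA4 overlapped, whereas those of HSP82 and HSP104 in E2 were all above those in EtOH by a small margin. For SSA1 the interval was -0.11 to 0.14, for SSA2 -0.16 to 0.08 and for HSC82 -0.07 to 0.13. None of these 6 intervals reaches the lower end of the response of the same gene in the reference strain. E2 libraries stood entirely above EtOH libraries for 14 of the 33 genes and entirely below for 4, where 17.5% and 18.3% of all genes did so, so many small shifts had one direction without passing the test. Fitted on the 6 libraries of this strain alone, 10 genes were called higher and 3 lower, where 11.5% and 12.0% of all genes were. Without reference EtOH replicate 3, which takes part in the shared estimate of spread, 5 were higher and 3 lower, where 8.42% and 8.04% of all genes were.

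**Figure D4:**
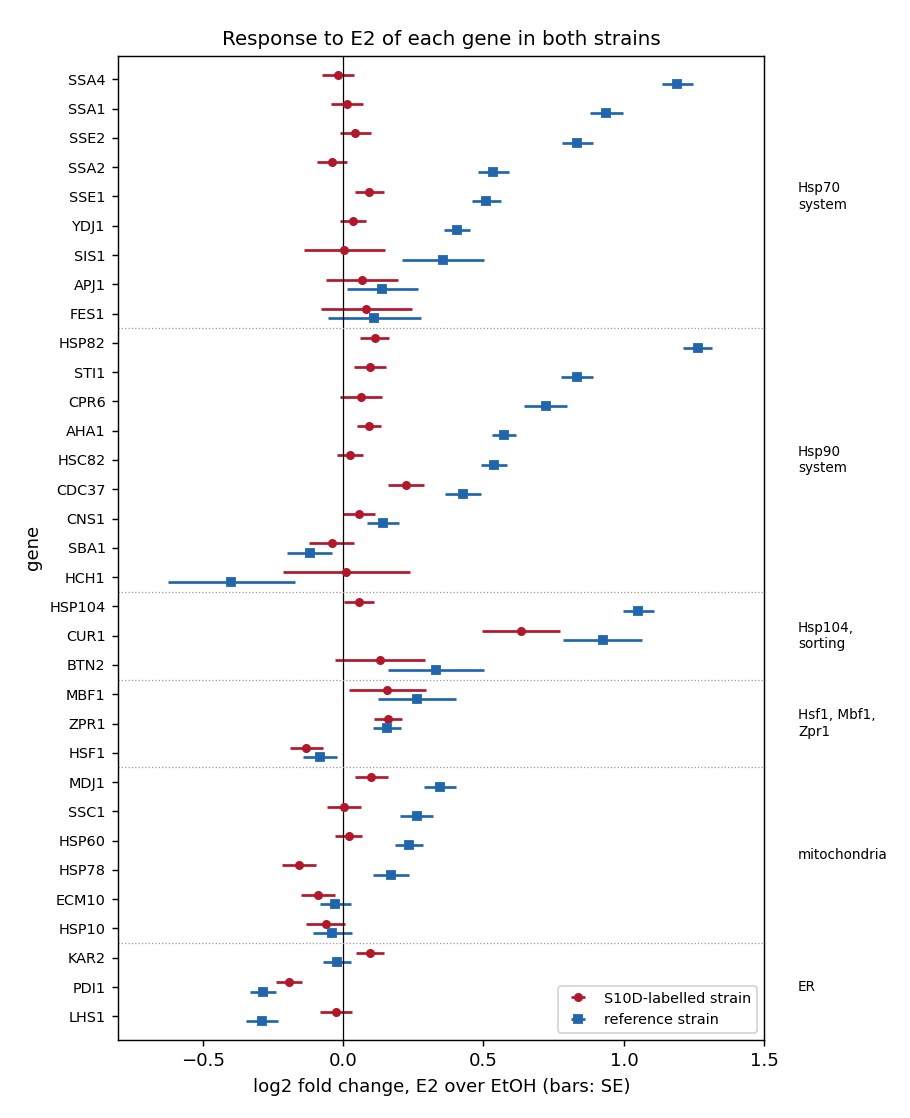
Log2 fold change in E2 over EtOH of each of the 33 genes (rows, by system), with SE bars, in the S10D-labelled strain (red circles) and the reference strain (blue squares). The 2 markers lie far apart for HSP82, SSA4, HSP104 and SSA1, which reach 0.94 to 1.26 in the reference strain, and near each other for ZPR1, PDI1 and HSF1.

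The difference of these responses, that of the S10D-labelled strain minus that of the reference strain, was tested in the same fit. It was negative and called for 15 of the 33 genes, positive and called for 1, and not called for 17, where 10.6% of all genes were called lower and 9.82% higher. The median over the 33 genes was -0.25, and between -0.35 and -0.17 in fits that left out 1 library, and that over all genes was 0.0075. The differences with the largest size were those of SSA4 (-1.21 ± 0.08, adjusted p = 3.30e-07), HSP82 (-1.15 ± 0.07, adjusted p = 3.30e-07), HSP104 (-0.99 ± 0.08, adjusted p = 1.35e-06) and SSA1 (-0.92 ± 0.08, adjusted p = 3.92e-06). By system, 6 of 9 Hsp70 genes, 5 of 9 Hsp90 genes, 3 of 6 mitochondrial genes and, of the sorting class, HSP104 had a smaller response in the S10D-labelled strain. LHS1 alone had a called difference above 0, at 0.26 ± 0.08 (adjusted p = 0.0342); it fell in the reference strain and was at -0.03 in the S10D-labelled strain. For CUR1, called higher in both strains, the difference was -0.29 ± 0.20 and not called, and for PDI1, called lower in both, it was 0.09 and not called. The calls of SSC1 (-0.26, adjusted p = 0.0427), HSP60 (-0.21, adjusted p = 0.0418) and LHS1 lay near the threshold. Leaving out 1 library ended those of SSC1 and HSP60 unless it was reference EtOH replicate 3 or reference E2 replicate 1, and that of LHS1 unless it was reference EtOH replicate 3 or reference E2 replicate 2. The HSP78 call (-0.33, adjusted p = 0.0184) was lost without reference E2 replicate 2, S10D-labelled EtOH replicate 1 or S10D-labelled E2 replicate 3. Without reference EtOH replicate 3 there were 23 called below 0 and 2 above, where 16.7% and 16.5% of all genes were; the 15 were kept, and CUR1 (-0.54) and SIS1 (-0.62) were among the 8 added.

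The strains were then compared within each medium. These comparisons use the same libraries as the responses, so the values are given side by side and not as separate evidence. In EtOH, 25 of the 33 genes were higher in the S10D-labelled strain than in the reference strain, 3 were lower and 5 were not called, where 26.7% of all genes were called higher and 31.4% lower. The median log2 fold change of the 33 was 0.42, and that of all genes -0.03. The S10D-labelled libraries lay entirely above the reference libraries for 23 genes and entirely below for 3, where 28.5% and 32.6% of all genes did so. Without reference EtOH replicate 3 the count was 29 higher and 3 lower, where 30.7% and 34.7% of all genes were, with APJ1, HCH1, MBF1 and SIS1 added to the higher. STI1 had 544, 519.7 and 528 CPM in S10D-labelled EtOH, against 235, 249 and 269 CPM in reference EtOH (1.08 ± 0.06, adjusted p = 1.05e-09). HSP78 had 286, 263 and 275 CPM in S10D-labelled EtOH, against 116, 132 and 141 CPM in reference EtOH (1.08 ± 0.06, adjusted p = 3.03e-09). Every S10D-labelled library of both genes was far above every reference library. HSC82 had 1971, 1917 and 2025 CPM in S10D-labelled EtOH, against 934, 994 and 1062 CPM in reference EtOH (0.98 ± 0.05, adjusted p = 3.28e-10). SSA2 (1.005 ± 0.06, adjusted p = 1.48e-09), AHA1 (0.98 ± 0.04, adjusted p = 9.90e-11), CPR6 (0.89 ± 0.08, adjusted p = 2.47e-07) and HSP82 (0.85 ± 0.05, adjusted p = 4.64e-09) were also among the higher. Of the Hsp90 system 8 of 9 genes were higher and none was lower; of the mitochondrial genes 5 were higher and ECM10 was lower. KAR2, at 2064 to 2143 CPM in S10D-labelled EtOH against 1457 to 1682 CPM in reference EtOH, was higher by 0.42, HSF1 by 0.41 and HSP10 by 0.57. SSA4 and SSE2, the less abundant and inducible members of their families, went the other way. SSA4 had 240.2 to 251 CPM in S10D-labelled EtOH, against 335 to 385 CPM in reference EtOH (-0.57 ± 0.06, adjusted p = 9.39e-07), and SSE2 was at -0.28 ± 0.06 (adjusted p = 0.000571), both without overlap. The third lower gene was ECM10 (-0.19 ± 0.06, adjusted p = 0.0132), which DESeq2 did not call (adjusted p = 0.0894). Among the higher genes, the calls of SBA1 (0.20, adjusted p = 0.0428) and CUR1 (0.37, adjusted p = 0.0480) lay near the threshold and were lost in 9 and 13 of the 20 alternative settings, with adjusted p of up to 0.162 and 0.170. Without reference EtOH replicate 3 both were called, SBA1 at 0.34 (adjusted p = 1.45e-08) and CUR1 at 0.62 (adjusted p = 9.06e-06).

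In E2, 19 genes were higher in the S10D-labelled strain, 6 were lower and 8 were not called, where 27.0% of all genes were called higher and 27.3% lower. The S10D-labelled libraries lay entirely above for 22 genes and entirely below for 6, where 34.0% and 34.6% of all genes did so. The 6 lower genes were SSA4, SSE2, HSP104, SSA1, HSP82 and ECM10, of which HSP82, HSP104 and SSA1 had been higher in the S10D-labelled strain in EtOH. SSA4 had 233, 248 and 247 CPM in S10D-labelled E2, against 792, 869 and 833 CPM in reference E2 (-1.78 ± 0.06, adjusted p = 3.62e-12). HSP104 had 1004, 1006 and 986 CPM in S10D-labelled E2, against 1221, 1406 and 1285 CPM in reference E2 (-0.39 ± 0.05, adjusted p = 4.05e-05), and HSP82 was at -0.30 ± 0.05 (adjusted p = 0.000233). Among the higher genes, HSP78 (0.76 ± 0.06, adjusted p = 1.87e-07), BTN2 (0.69 ± 0.16, adjusted p = 0.00349), FES1 (0.58 ± 0.16, adjusted p = 0.0110), HSP10 (0.54 ± 0.07, adjusted p = 1.75e-05) and KAR2 (0.54 ± 0.05, adjusted p = 6.41e-07) stood furthest from the reference. BTN2 and FES1 had S10D-labelled libraries above every reference library in E2, where reference EtOH replicate 3 plays no part in the levels. All 3 endoplasmic reticulum genes were higher in the S10D-labelled strain in E2, LHS1 by 0.37 and PDI1 by 0.24. Relative to reference EtOH, the levels of HSC82, STI1, AHA1 and SSA2 were higher in reference E2 and higher still in both S10D-labelled groups, while those of SSA4 and SSE2 were higher in reference E2 and lower in both S10D-labelled groups. HSP78, HSP10 and KAR2 were higher in the S10D-labelled strain in both media by more than they moved with E2 in either strain.

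Within paralog pairs the balance shifted, which is seen in each library as the share of the family's counts held by 1 gene. HSP82 held 24.7 ± 0.217% of Hsp90 counts in S10D-labelled E2 and 23.7 ± 0.387% in S10D-labelled EtOH, and 35.9 ± 0.0419% in reference E2 and 25.3 ± 0.312% in reference EtOH (SD, 3 libraries each). The reference E2 libraries were thus alone above the rest. SSA4 held 9.77 ± 0.535% of the SSA1, SSA2 and SSA4 counts in S10D-labelled E2 and 9.80 ± 0.137% in S10D-labelled EtOH, against 26.8 ± 0.610% in reference E2 and 21.7 ± 1.26% in reference EtOH. The SSE2 share of SSE1 and SSE2 counts was 12.4 ± 0.106% in S10D-labelled E2, 12.8 ± 0.211% in S10D-labelled EtOH, 26.9 ± 0.194% in reference E2 and 22.7 ± 0.490% in reference EtOH. For SSA4 and SSE2 the strains lay further apart than the media did in either strain. ECM10 held 2.13 ± 0.0417% of the SSC1 and ECM10 counts in S10D-labelled E2, 2.27 ± 0.0937% in S10D-labelled EtOH, 3.00 ± 0.168% in reference E2 and 3.64 ± 0.277% in reference EtOH. The 2-sided exact permutation test of 3 libraries against 3 gave p = 0.1, the smallest it can give, in every comparison of 2 groups except E2 against EtOH in the S10D-labelled strain for SSA4 (p = 0.9) and ECM10 (p = 0.2), so this test, with 3 libraries a group, cannot bring these shares under 0.05. HSP82 and HSC82 share 6.39% and 6.43% of their 50-base windows, and the SSE1 and SSE2 pair and the SSC1 and ECM10 pair share none. SSA1 and SSA2 share 57.9% and 58.2% of theirs, and SSA4 shares none with either. The size of the SSA4 share thus depends on how reads common to SSA1 and SSA2 were counted. The summed level of all 33 genes, in CPM of raw library totals without TMM factors, restates the percent of counts given above. It was 19325 ± 139.8 CPM in S10D-labelled E2 and 18676 ± 213 in S10D-labelled EtOH. In reference E2 it was 18388 ± 590.2 and in reference EtOH 13383 ± 526, so reference EtOH was apart from the other 3 groups.

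**Figure D5:**
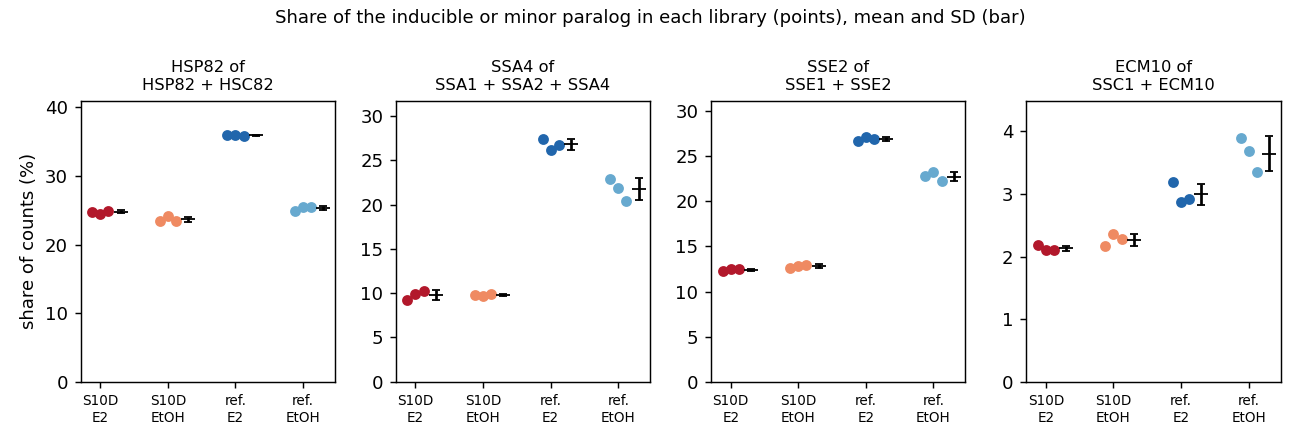
Share of the family's counts, in percent, held by HSP82, SSA4, SSE2 and ECM10 in each library (points, 3 per group), with group mean and SD (bar), for both strains in E2 and in EtOH. HSP82 reaches 35.9% in reference E2 and 23.7% to 25.3% on average in the other groups, while SSA4 and SSE2 are lower in both S10D-labelled groups than in either reference group.

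Across the 33 genes the E2 responses of the strains, which share no library, had a Pearson's r of 0.41 and a Spearman's rho of 0.42, and the strain differences in EtOH and in E2, which share none either, had 0.65 and 0.54; the genes were measured in the same libraries, so these values only describe the list. For context, 53 other folding genes were counted in the same fit. In the reference strain 15 of them rose in E2 and 17 fell, with a median of -0.10, where 22.4% of all genes were called higher and 22.2% lower. Of the 53, 3 rose and 3 fell with E2 in the S10D-labelled strain, where 2.42% and 2.14% of all genes did. Among the small and other heat shock proteins, HSP30, a heat shock protein of the plasma membrane, had 503 to 544 CPM in reference E2, against 161, 156 and 326 CPM in reference EtOH (1.30 ± 0.23, adjusted p = 0.00117). Replicate 3 was again the high EtOH library, and without it the value was 1.74. In the S10D-labelled strain HSP30 was at 0.15 ± 0.23 and not called, a difference of -1.15 (adjusted p = 0.0307). HSP12, a membrane stress protein, was at 1.25 ± 0.04 in the reference strain and at 0.36 ± 0.04, called as well, in the S10D-labelled strain. HSP26, a small heat shock protein that binds unfolded chains, was at 1.23 ± 0.05 in the reference strain and lower, at -0.19 ± 0.05, in the S10D-labelled strain, a difference of -1.42. Like SSA4, HSP26 was lower in the S10D-labelled strain than in the reference strain in EtOH (-1.12) and in E2 (-2.53), and so was SSA3, the other stress-induced Hsp70 gene (-0.63 and -0.89). HSP31, which encodes a glyoxalase-like protein, was 3.62 ± 0.06 higher on the log2 scale in the S10D-labelled strain in EtOH. Of 9 Hsp70 genes and partners outside the 33, 3 rose in E2 in the reference strain, with the auxilin gene SWA2 at 0.46 and SSA3 at 0.45, and 4 fell, with SNL1, which holds Hsp70 at a membrane, at -0.32 and SSB2, a ribosome-bound Hsp70, at -0.21. Of the CCT chaperonin and prefoldin, which fold actin and tubulin, 3 of 14 genes rose (CCT4 at 0.33) and 3 fell (PFD1 at -0.30). These counts were close to the shares of all genes. The 3 that rose, like SWA2, lie on chromosome IV by their systematic names. On that chromosome 308 of 737 genes were called higher, where 22.4% of all genes were. Without reference EtOH replicate 3, 3 of the 14 rose and 6 fell, where 26.0% of all genes were called higher and 26.0% lower. The endoplasmic reticulum genes outside the 33 had 5 of 11 lower, among them HAC1 at -0.59 and SCJ1 at -0.37. Another 2 were higher, with ERO1, the thiol oxidase gene, at 0.54. Without reference EtOH replicate 3, in which HAC1 was highest (1684 CPM, against 1382 and 1128), 7 were lower and 2 higher. The lowest value among these 11 genes was then -0.44, and 26.0% of all genes were called lower. Of 138 ribosomal protein genes 125 fell in the reference strain, with a median of -0.54, and 1 fell in the S10D-labelled strain.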

How the data were processed

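RNA-seq libraries of polyadenylated RNA were made with a stranded kit that marks strand by dUTP, per the labels' protocols. The authors deposited 1 table of raw counts per gene for 12 libraries, whole numbers without normalization. The submitters' processing notes name bcl2fastq 2.20.0.422, cutadapt 1.10, STAR 2.5.3a and HTSeq 0.6.1p1, with the builds R64 and sacCer3; the annotation release, counting mode and strand setting are not given in the sources used here, so reads of paralogs or overlapping genes may be divided unevenly. No column belonged to another series.

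Counts were fitted with edgeR 4.0.16 (R 4.3.3) as 4 group means over all 12 libraries, with TMM scaling, the filterByExpr filter (minimum count 10, minimum total 15) and the robust quasi-likelihood test, 2-sided, with Benjamini-Hochberg adjustment over the 5990 genes tested and calls at an adjusted p under 0.05. Errors of fold changes are SE, each the fold change on the log2 scale divided by the root of F. There were 5 comparisons: E2 against EtOH in each strain, the difference of these responses, and the strains within each medium. Family shares and summed CPM were compared with exact permutation tests. Motifs were searched in 500 bases before each start codon, read from RefSeq's R64 genome. The procedure was tested on simulated data. Alternatives were DESeq2 1.42.0, other scaling factors, other filters, fewer libraries and the replicate number as a block. Same-numbered libraries of different groups did not deviate together (correlations of -0.077 to 0.141), so the numbers were not taken to pair them.

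The 33 genes and the other lists were chosen with earlier results of these data known. By rule, full statistics went to at most the 12 called genes with the largest change in a comparison, and of the other folding genes at most the 4 largest called per list were named. Windows were printed for the 3 genes with the largest and 2 with the smallest response in the reference strain. Protein sequences were not used here.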

Additional observations from a re-analysis of the deposited data

Results flagged for a closer look

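The response to E2 differed between the strains, by the test of the difference itself (edgeR, adjusted over all genes), for 16 of the 33 genes. As log2 fold changes, S10D-labelled minus reference, the differences of the Hsp70 system were -1.21 for SSA4, -0.92 for SSA1, -0.79 for SSE2, -0.57 for SSA2, -0.42 for SSE1 and -0.37 for YDJ1. Those of the Hsp90 system were -1.15 for HSP82, -0.74 for STI1, -0.66 for CPR6, -0.51 for HSC82 and -0.48 for AHA1. HSP104 stood at -0.99, and the mitochondrial genes HSP78, SSC1 and HSP60 at -0.33, -0.26 and -0.21. LHS1 of the endoplasmic reticulum, at 0.26, was the one with the opposite sign. Of all genes tested, 10.6% had a called difference below 0 and 9.82% one above 0.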

How the results depend on the processing

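Counts of the 33 genes called stayed within 1.5 times the reported number under DESeq2, DESeq2 size factors in edgeR, scaling without ribosomal protein or chromosome IV genes, no filter and a filter at a mean of 10 CPM. In the S10D-labelled strain the fit on its own 6 libraries called 10 higher and 3 lower, against 1 and 1; over all genes it called 1370 against 273, and fits without 1 library called 102 to 991. Leaving out 1 library at a time gave 17 to 24 higher and 2 to 3 lower for E2 in the reference strain, 0 to 5 and 0 to 3 in the S10D-labelled strain, 0 to 2 and 12 to 23 for the difference, 22 to 29 and 3 for the strains in EtOH, and 18 to 21 and 6 in E2. Over all genes the same fits called 2133 to 3133 for E2 in the reference strain and 906 to 1994 for the difference. They called 3127 to 3935 for the strains in EtOH and 2825 to 3989 in E2. The upper ends of these ranges came without reference EtOH replicate 3. In S10D-labelled against reference EtOH, APJ1 ran between -0.16 and 0.18 and HCH1 between -0.24 and 0.38, both turning positive without that library. The E2 effect on the SSA4 share in the S10D-labelled strain ran between -0.25 and 0.26 percentage points. The replicate number was not taken to pair these libraries. Used as a block, it left every count of the 33 genes as it was (19 higher and 2 lower for E2 in the reference strain). In that comparison it called 2679 genes in all, against 2671. The genes behind 2 of the counts changed. For E2 in the reference strain SIS1 was gained (0.38, adjusted p = 0.0403) and HSP78 lost (adjusted p = 0.0505), and for the strains in EtOH SIS1 was gained (0.36, adjusted p = 0.0381) and CUR1 lost (adjusted p = 0.0563). The calls of CUR1 and PDI1 in the S10D-labelled strain were lost in 5 and 6 of the fits that left out 1 library. The cause of these changes was not tested. Depth, at 9362173 counts or more, left every one of the 33 genes testable.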
